A study of Mus musculus with 12 samples.

Results

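The integrated stress response genes described here are 38 targets of the transcription factor ATF4 and genes of amino acid supply: 7 transcription factors, 5 feedback and signalling genes, 3 secreted or surface proteins, 10 enzymes of amino acid synthesis, 4 enzymes of mitochondrial folate metabolism, 8 amino acid transporters and 1 tRNA exporter. They were taken from a list of named genes, chosen with earlier results of these data known. Each had to reach 10 counts in at least 3 of 12 RNA-seq libraries. All 38 did, out of 55421 genes in the count table, of which 19123 met the same rule. The libraries came from microglia, the resident macrophages of the brain, sorted by fluorescence from mouse brain and then kept in culture without oxygen and glucose (OGD, oxygen-glucose deprivation) to model ischaemia. Mice carried the reporter genotype Cx3cr1EGFP alone (WT) or Slc2a5-/-::Cx3cr1EGFP (KO), so the reporter was present in both arms, and Slc2a5 encodes the fructose transporter GLUT5. The labels do not say how many Cx3cr1 copies carry the reporter or in which cells Slc2a5 was deleted. The labels gave the mice as male and aged P35-P40. OGD lasted 6 h, and cells were taken straight after it (WT-OGD, KO-OGD) or after a further 24 h of recovery (WT-recovery, KO-recovery), with 3 libraries in each of the 4 groups. No group without OGD was analysed here, so levels before OGD are not known, and every change over time is a change from the end of OGD. The title of the study names the inhibition of microglial SLC2A5 after stroke, and the genotype comparisons bear on the loss of that gene.

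Cells that run short of amino acids, haem or protein folding capacity phosphorylate the translation factor eIF2, which slows most protein synthesis while favouring translation of ATF4. ATF4 is a transcription factor that pairs with C/EBP family proteins and switches on genes that import amino acids, make serine, asparagine, proline and cysteine, and load tRNAs. It also switches on CHOP (Ddit3) and a set of feedback inhibitors, among them GADD34 (Ppp1r15a) and TRIB3, which help to end the response.

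Total counts were 31509859 to 45347118 per OGD library and 9885259 to 19915479 per recovery library, and mitochondrial genes took 4.20 to 5.75% of them after OGD and 4.72 to 18.4% after recovery, with the highest share in WT-recovery replicate 1. The treatment field of that library named OGD without recovery, whereas its title named recovery, and it was grouped by its title. Slc2a5, the deleted gene, reached 40 to 58 counts in the WT-OGD libraries, 4 to 17 in the KO-OGD ones and 0 to 2 in all recovery libraries, so it checked the genotype labels after OGD and could not check them after recovery. Xist, an RNA of the inactive X chromosome, had 4101 to 10232 counts in all WT-OGD, KO-OGD and KO-recovery libraries and 0, 3 and 0 in WT-recovery, although all were labelled male. The 3 comparisons that use WT-recovery (over time in WT, between genotypes after recovery, and of the change over time between genotypes) therefore also differ in this respect, and the Xist level and the group cannot be told apart in them. Of the microglial markers 10 of 10 were detected in every group, though Tmem119 had only 15 raw counts over the WT-OGD libraries and 21 over the KO-OGD ones. Their summed level was 2303 to 2335 CPM (counts scaled to library size) in WT-OGD and 2539 to 2784 in KO-OGD. In WT-recovery the sum was 2784 to 4071 and in KO-recovery 3980 to 4412. It was thus higher in KO after OGD, and higher after recovery in both genotypes, with no overlap. Astrocyte markers, 11 of 11 detected, summed to 129 to 186 CPM in WT-OGD, 54.8 to 76.4 in KO-OGD, 167 to 192 in WT-recovery and 81.5 to 120.0 in KO-recovery, so they were lower in KO at both times with no overlap. Neuronal markers summed to 24.3 to 36.3 CPM in WT-OGD, 7.89 to 13.8 in KO-OGD, 78.7 to 93.7 in WT-recovery and 16.4 to 27.4 in KO-recovery. KO-OGD replicate 2 was the lowest library of its group in 29 of the 38 genes and the lowest of all 6 OGD libraries in 24 of them. KO-recovery replicates 1 and 3 held 415 and 335 CPM of connective tissue and muscle markers, against 19.0 in replicate 2. The labels do not tie replicates to separate mice or cultures, and p-values measure only the spread between these libraries, which may be technical. In these bulk samples fewer cells of a type and less RNA per cell cannot be told apart.

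ATF4 and its C/EBP partners bind a composite element whose core is written TGATGNAA. That motif was looked for on both strands in the window from 250 bases before to 50 bases after the gene start, in RefSeq sequences of build GRCm38.p6. Of the 38 genes 32 had an entry, and 10 of these 32 (31.2%) held the motif in at least 1 window. The share was 4.51% of 27025 genes with an entry. The 38 were listed as ATF4 targets and genes of amino acid supply, so their higher share is not independent support for control by ATF4. The stretches show where the motif lies in genes that fell far after OGD (Chac1, Trib3, Asns), in the cystine transporter gene Slc7a11, which held it in both orientations, in Atf3, which fell by less than 2-fold, and in Vldlr, which did not pass the test over time. Each is given in the direction of its gene, and capitals mark the match. The Chac1 stretch lies at chr2:119351023-119351082 on the plus strand, Trib3 at chr2:152344028-152344057, Asns at chr6:7693214-7693243, Slc7a11 at chr3:50443636-50443695 and Atf3 at chr1:191183410-191183469 on the minus strand, and Vldlr at chr19:27216809-27216838 on the plus strand.
Chac1: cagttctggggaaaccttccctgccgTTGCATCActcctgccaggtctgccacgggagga
Trib3: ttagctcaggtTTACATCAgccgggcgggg
Asns: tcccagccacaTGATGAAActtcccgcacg
Slc7a11: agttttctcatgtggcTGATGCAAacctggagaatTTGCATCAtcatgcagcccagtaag
Atf3: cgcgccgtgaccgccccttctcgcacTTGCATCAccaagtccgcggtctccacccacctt
Vldlr: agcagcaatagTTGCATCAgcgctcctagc
Counted from the RefSeq start, the match began at position -193 in Chac1, -110 in Atf3, -23 in Asns and 15 in Trib3. Nupr1, Slc1a4, Pycr1 and Got1 held the same motif. The median log2 change from OGD to recovery was -1.28 in WT and -1.81 in KO for the 10 genes with it, and -1.80 and -1.99 for the 22 without it. The cAMP response element TGACGTCA was found in Ppp1r15a, 1 of the 32 genes (3.13%, against 2.03% of all genes). Such matches describe letters in these windows and were not tested as binding sites.

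Straight after OGD the 38 genes together held 4785, 5027 and 4697 CPM in the WT replicates and 5554, 4657 and 5309.7 in the KO replicates. After recovery they held 1562, 1300.4 and 1303 CPM in WT and 1409, 1511 and 1471 in KO. Every recovery library lay below every OGD library, and the genotypes overlapped at both times. Divided by exon length, the most abundant after OGD in WT was Atf4 itself at 254 ± 11.6 CPM per kilobase (SD, n = 3), followed by Slc3a2, the shared heavy chain of several amino acid exchangers, at 184 ± 13.1. Atf3 and Ddit3, both transcription factors induced by ATF4, came next, and Cbs, an enzyme of the route from homocysteine to cysteine, was lowest of the 38 in each group. Levels are CPM scaled by TMM (trimmed mean of M-values) and given for replicates 1, 2 and 3 in that order. Changes are log2 fold changes ± SE from edgeR's quasi-likelihood test, with p-values adjusted over 18842 genes by the Benjamini-Hochberg method and called at 0.05. The test itself gives no SE. The SE was derived as the absolute log2 fold change divided by the square root of the F statistic, and is approximate.

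**Figure D1:**
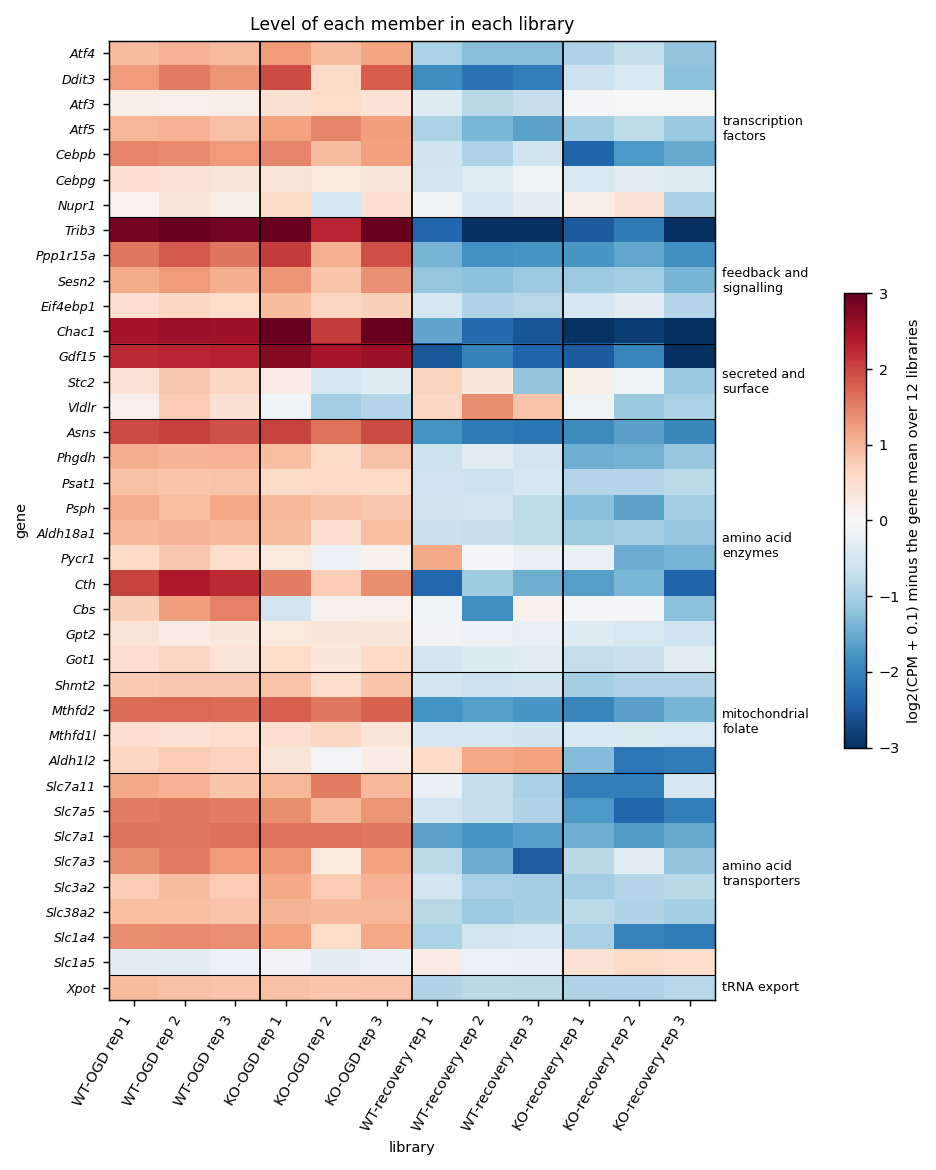
Level of each of the 38 genes (rows, grouped by role) in each of the 12 libraries (columns), as log2(CPM + 0.1) minus the mean of the gene over all libraries, with colours cut at 3 log2 units either side of 0. In most rows the 6 OGD libraries are above the mean and the 6 recovery libraries below it.

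From the end of OGD to recovery, 32 of the 38 genes fell in WT and none rose by the test (84.2% called), where 56.8% of all genes tested were called, 29.9% lower and 26.9% higher. In KO 33 fell and 1, Slc1a5, rose (89.5% called), where 59.0% of all genes were called, 29.6% lower and 29.3% higher. The fall was at least 2-fold in 28 genes in WT, against 10.9% of all genes, and in 29 in KO, against 10.2%. It was at least 4-fold in 17 genes in WT, against 3.83% of all genes, and in 20 in KO, against 3.42%. The median log2 change of the 38 was -1.73 in WT and -2.03 in KO, where the median over all genes was -0.03 and 0.00. In WT 33 of the 38 had all recovery libraries below all OGD libraries and none had them all above, against 35.5% and 31.6% of all genes. In KO 33 had them all below and 1 all above, against 31.3% and 29.9%. In both genotypes 31 genes fell, and Nupr1, Stc2, Vldlr and Slc1a5 fell in neither. Other markers moved with time as well. The summed endothelial markers went from 9.35 to 10.9 CPM in WT-OGD to 64.4 to 81.7 in WT-recovery, and from 10.2 to 11.7 to 119.8 to 130.4 in KO. Flt1 carried most of that sum, with 869 raw counts over the WT-OGD libraries and 2591 over the shallower WT-recovery ones. Of 4 endothelial markers tested only 1 was called higher in WT, at 3.29, and none was called lower. The other 3 were below 0, the lowest at -1.50. Pecam1 went from 127 to 14 raw counts, not scaled to depth, and Cldn5 had no counts in 11 of the 12 libraries. Oligodendrocyte lineage markers were called higher in 10 of 10 cases in WT and 8 in KO, and their sum went from 157 to 164 CPM to 323 to 367 in WT and from 154 to 159 to 259 to 315 in KO. The neutrophil sum went from 21.7 to 30.6 CPM to 371 to 515 in WT and from 18.7 to 21.2 to 660.3 to 827 in KO, mostly through Mmp8, while Ly6g was at 0 in all 12 libraries. Their part in the fall was not tested.

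**Figure D2:**
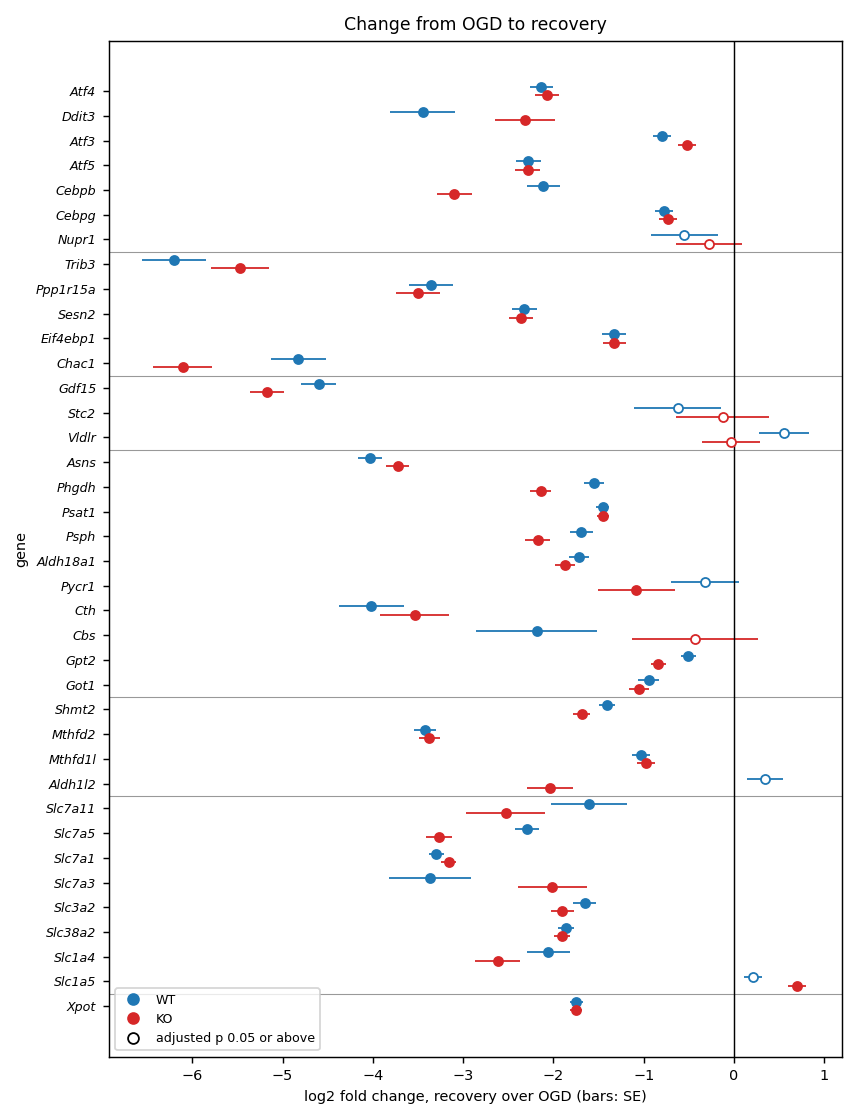
Log2 fold change of each of the 38 genes from OGD to recovery in WT and in KO, with bars of 1 SE; filled points passed an adjusted p of 0.05 and open points did not. Most points of both genotypes lie left of 0, with Trib3, Chac1 and Gdf15 farthest, and Slc1a5 lies right of 0 in both.

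Among the transcription factors, 6 of 7 fell in both genotypes. Atf4 itself was at 582, 631 and 585 CPM in WT-OGD and 158, 127 and 125 in WT-recovery. In KO it was at 739, 582 and 696 CPM after OGD and 159.6, 186 and 134 after recovery. The recovery libraries lay far below the OGD libraries in both genotypes, a change of -2.13 ± 0.13 (adjusted p = 4.92e-09) in WT and -2.07 ± 0.13 (adjusted p = 4.91e-09) in KO. Ddit3, which encodes the pro-apoptotic factor CHOP, was at 231, 281 and 239 CPM (WT) and 369, 141 and 334 (KO) straight after OGD, and at 26.0, 20.6 and 22.6 (WT) and 60.4, 68.7 and 40.9 (KO) after recovery. It changed by -3.45 ± 0.36 (adjusted p = 2.52e-05) in WT and -2.32 ± 0.34 (adjusted p = 2.19e-04) in KO, and KO-OGD replicate 2 held 0.401 times the mean of the other KO-OGD libraries. Atf5, a related factor under the same translational control, went from 122, 126 and 113 CPM to 31.7, 23.5 and 20.0 in WT and from 142, 169 and 146 to 29.9, 35.8 and 28.1 in KO. Its change was -2.28 in WT and -2.29 in KO, with no overlap between times. The C/EBP partner Cebpb went from 43.7, 41.8 and 37.9 CPM to 10.3, 8.24 and 10.3 in WT and from 43.3, 29.9 and 36.8 to 2.88, 4.65 and 5.46 in KO, changes of -2.11 ± 0.18 (adjusted p = 2.41e-07) and -3.10 ± 0.19 (adjusted p = 8.69e-09). Cebpg, another partner of ATF4, and Atf3 moved less, by -0.77 and -0.80 in WT and by -0.73 and -0.52 in KO, all 4 past the test. Atf3 kept 57.6% of its OGD mean in WT and 69.8% in KO and had the highest level per kilobase of the 38 genes in both recovery groups. Nupr1, a small stress-induced chromatin protein, did not pass, at -0.55 ± 0.38 (adjusted p = 0.240) in WT and -0.28 ± 0.37 (adjusted p = 0.533) in KO, and its KO-recovery libraries ranged from 19.0 to 50.6 CPM.

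All 5 feedback and signalling genes fell in both genotypes, and Trib3 and Chac1 were the 2 largest falls of the set. Trib3, a pseudokinase that dampens ATF4 and AKT signalling, was at 147, 159 and 148 CPM in WT-OGD and 3.77, 1.71 and 1.26 in WT-recovery. Its KO values were 182, 97.6 and 169.9 after OGD and 3.47, 4.49 and 2.41 after recovery. That is a 73.6-fold fall in WT (log2 -6.20 ± 0.35, adjusted p = 1.02e-07) and a 44.5-fold fall in KO (log2 -5.47 ± 0.32, adjusted p = 9.87e-08), with no overlap between times. Chac1, an enzyme that breaks down glutathione, went from 30.1, 32.3 and 31.3 CPM to 1.71, 0.977 and 0.814 in WT and from 44.1, 23.1 and 42.9 to 0.595, 0.653 and 0.375 in KO. In recovery it had only 7 to 16 counts per library, and the fall was 28.4-fold in WT and 69.0-fold in KO (log2 -4.83 ± 0.31, adjusted p = 3.67e-08 and -6.11 ± 0.32, adjusted p = 5.85e-09). Ppp1r15a, whose product GADD34 brings a phosphatase to eIF2, went from 207, 249 and 212 CPM to 26.1, 19.5 and 20.3 in WT and from 299, 145 and 266 to 20.4, 23.4 and 19.1 in KO. It changed by -3.36 in WT and -3.50 in KO and kept 9.86% and 8.86% of its OGD mean. Sesn2, which inhibits the growth kinase mTORC1 when leucine is short, went from 130.3, 146 and 128 to 26.8, 25.6 and 28.3 CPM in WT and from 150.2, 108 and 155 to 28.1, 29.9 and 22.7 in KO, a change of -2.32 and -2.36. Eif4ebp1, an inhibitor of cap-dependent translation, moved least of the 5, from 53.4, 57.4 and 54.9 to 25.8, 20.1 and 20.6 CPM in WT and from 70.8, 58.8 and 61.5 to 26.1, 30.0 and 20.3 in KO, with a change of -1.33 in each genotype.

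Of the 3 secreted or surface genes only Gdf15 passed the test over time. Gdf15, a hormone that signals cell stress to the hindbrain, was at 87.6, 91.2 and 94.1 CPM in WT-OGD and 3.08, 4.46 and 3.40 in WT-recovery. In KO it was at 125, 104 and 109.9 CPM and 3.17, 4.65 and 1.93. No recovery library came near the OGD libraries of its genotype, and the change was -4.60 ± 0.19 (adjusted p = 2.80e-10) in WT and -5.17 ± 0.19 (adjusted p = 5.92e-11) in KO. Stc2, a secreted glycoprotein, was at 0.148 to 0.885 CPM throughout and changed by -0.63 ± 0.48 (adjusted p = 0.283) in WT and -0.12 ± 0.51 (adjusted p = 0.850) in KO. Vldlr, a lipoprotein receptor, changed by 0.55 ± 0.28 (adjusted p = 0.106) in WT and -0.03 ± 0.32 (adjusted p = 0.938) in KO.

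Enzymes of amino acid synthesis fell in 9 of 10 cases in each genotype. Asns, which makes asparagine, was at 167, 179 and 162 CPM (WT) and 177, 134 and 168 (KO) straight after OGD, and at 12.3, 9.83 and 9.39 (WT) and 11.5, 13.9 and 11.2 (KO) after recovery. Its fall was 16.3-fold in WT and 13.2-fold in KO (log2 -4.03 ± 0.13, adjusted p = 1.47e-11 and -3.72 ± 0.13, adjusted p = 1.60e-11). The serine pathway of Phgdh, Psat1 and Psph, which makes serine from a glycolytic intermediate in that order of steps, fell less. Phgdh went from 94.0, 90.5 and 91.8 CPM to 28.4, 35.5 and 30.0 in WT and from 83.3, 66.5 and 82.0 to 15.9, 16.5 and 20.1 in KO, with no overlap between times. Psat1 went from 131, 127 and 129.8 CPM to 46.4, 45.9 and 49.0 in WT and from 107, 108 and 108 to 38.5, 38.5 and 41.0 in KO. Psph went from 22.0, 19.3 and 23.2 CPM to 6.85, 7.08 and 6.06 in WT and from 20.7, 19.0 and 18.1 to 4.26, 3.35 and 4.98 in KO. The 3 steps retained 34.0%, 36.4% and 31.0% of their OGD means in WT, and 22.7%, 36.6% and 21.8% in KO. Aldh18a1, the first committed step to proline, went from 57.6, 59.5 and 57.6 CPM to 18.2, 18.0 and 17.2 in WT and from 56.3, 40.9 and 54.4 to 13.8, 14.5 and 13.3 in KO, changes of -1.71 and -1.87. Pycr1, the last step to proline in mitochondria, did not pass in WT (-0.33 ± 0.38, adjusted p = 0.479) and passed narrowly in KO (-1.08 ± 0.43, adjusted p = 0.0420), and its KO-recovery libraries held 3 to 15 counts. The KO call of Pycr1 was lost without any of WT-OGD 1, 2 or 3, KO-OGD 1 or 3, or KO-recovery 2 or 3 (adjusted p 0.0537 to 0.150).

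Cth, which splits cystathionine to give cysteine, was at 4.42, 5.70 and 5.05 CPM in WT-OGD and 0.114, 0.427 and 0.296 in WT-recovery, where the libraries held 1, 7 and 4 counts. In KO it was at 3.10, 1.74 and 2.79 CPM after OGD and 0.248, 0.327 and 0.107 after recovery, on 5, 4 and 2 counts. The falls, -4.02 ± 0.36 (adjusted p = 2.47e-07) in WT and -3.54 ± 0.38 (adjusted p = 1.39e-06) in KO, are therefore imprecise in size, though no libraries overlapped. Cbs, the enzyme before it, had at most 45 counts in any library. It passed in WT (-2.19 ± 0.67, adjusted p = 0.0113), not without WT-recovery replicate 2, which had 0 counts (-2.19 became -1.44, adjusted p 0.0741), and not in KO (-0.44 ± 0.70, adjusted p = 0.610). Got1, which links aspartate and glutamate, went from 89.4, 96.3 and 83.2 CPM to 42.6, 47.3 and 49.2 in WT and from 91.4, 77.7 and 95.5 to 37.97, 39.4 and 50.2 in KO. Gpt2, which links alanine and glutamate, went from 46.7, 41.0 and 44.6 to 32.8, 30.9 and 29.7 CPM in WT and from 43.2, 45.0 and 45.4 to 26.9, 25.1 and 22.7 in KO, changes of -0.51 and -0.84.

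In mitochondrial folate metabolism, which turns serine into one-carbon units, Mthfd2 fell most. It was at 154, 156 and 153 CPM (WT) and 165, 144 and 164 (KO) straight after OGD, and at 13.7, 15.1 and 14.2 (WT) and 12.1, 15.4 and 18.1 (KO) after recovery. The fall was 10.7-fold in WT and 10.4-fold in KO (log2 -3.42 ± 0.12, adjusted p = 3.38e-11 and -3.38 ± 0.12, adjusted p = 1.72e-11). Shmt2, the step before it, went from 74.1, 75.4 and 76.0 to 28.8, 27.6 and 28.6 CPM in WT and from 77.4, 62.0 and 77.0 to 21.4, 22.9 and 23.0 in KO. Mthfd1l, which releases formate, went from 15.9, 15.5 and 16.6 to 7.99, 8.06 and 7.47 CPM in WT and from 16.3, 17.6 and 15.0 to 8.23, 8.49 and 8.19 in KO. Shmt2 changed by -1.41 in WT and -1.69 in KO, and Mthfd1l by -1.03 and -0.97, all past the test. Aldh1l2, which oxidises formyl-folate in mitochondria and yields NADPH, fell in KO (-2.04 ± 0.26, adjusted p = 6.74e-06) and not in WT (0.34 ± 0.20, adjusted p = 0.153).

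Amino acid transporters fell in 7 of 8 cases in each genotype, with Slc1a5 apart. Slc7a1, the carrier of arginine and lysine, had the smallest adjusted p of the 38. It was at 115, 112 and 117 CPM (WT) and 116, 116 and 112 (KO) straight after OGD, and at 12.3, 11.0 and 11.8 (WT) and 13.4, 11.6 and 13.2 (KO) after recovery. Replicates differed little, and the change was -3.30 ± 0.08 (adjusted p = 3.59e-13) in WT and -3.16 ± 0.08 (adjusted p = 5.83e-13) in KO. Slc7a3, a relative with the same substrates, was at 2.44, 2.74 and 2.24 CPM (WT) and 2.27, 1.08 and 2.13 (KO) straight after OGD. After recovery it was at 0.457, 0.244 and 0.0740 (WT) and 0.446, 0.653 and 0.321 (KO), on 1 to 9 counts per library. Its change was -3.37 ± 0.45 (adjusted p = 1.54e-05) in WT and -2.01 ± 0.38 (adjusted p = 3.37e-04) in KO. Slc7a5, which imports leucine and other large neutral amino acids, was at 87.7, 88.0 and 84.9 CPM in WT-OGD and 19.9, 17.8 and 15.8 in WT-recovery. In KO it was at 77.3, 58.2 and 73.8 CPM and 8.82, 5.55 and 7.01. The times did not overlap in either genotype, and the change was -2.30 in WT and -3.27 in KO.

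Slc3a2, the heavy chain that carries Slc7a5 and Slc7a11 to the membrane, went from 618, 703 and 629.7 CPM to 249, 188 and 183 in WT and from 814, 626 and 769 to 179, 202 and 211 in KO. It changed by -1.66 in WT and -1.90 in KO. Slc7a11, the cystine and glutamate exchanger, went from 441, 412 and 357 CPM to 175, 122 and 102 in WT and from 402, 582 and 392 to 48.2, 47.7 and 141 in KO. The falls passed the test (-1.61 ± 0.42, adjusted p = 0.00944 and -2.53 ± 0.43, adjusted p = 8.24e-04), and KO-recovery replicate 3 held 2.94 times the mean of the other KO-recovery libraries. Slc38a2, a sodium-coupled importer of small neutral amino acids, went from 291, 293 and 285 CPM to 88.7, 73.2 and 78.5 in WT and from 317, 309 and 314 to 90.5, 84.0 and 76.7 in KO. Slc1a4, a carrier of alanine, serine and cysteine, went from 15.5, 15.6 and 15.2 to 2.97, 3.97 and 3.99 CPM in WT and from 13.6, 8.61 and 13.2 to 2.92, 1.39 and 1.28 in KO. Slc38a2 changed by -1.86 (WT) and -1.90 (KO), and Slc1a4 by -2.06 (WT) and -2.62 (KO), with no overlap between times. Slc1a5, a glutamine exchanger, was the exception, at 61.6, 61.0 and 66.7 CPM (WT) and 70.3, 62.3 and 65.7 (KO) straight after OGD, and at 88.1, 66.3 and 65.8 (WT) and 102, 112 and 108 (KO) after recovery. It rose in KO (0.70 ± 0.10, adjusted p = 2.87e-05), with every KO-recovery library above every KO-OGD library, and did not pass in WT (0.21 ± 0.10, adjusted p = 0.0892). Xpot, which exports tRNAs from the nucleus, went from 166, 159 and 155 CPM to 45.8, 48.9 and 47.9 in WT and from 159, 153 and 155 to 45.7, 45.3 and 47.8 in KO, and its change of -1.75 was the same in both genotypes to the second decimal.

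**Figure D3:**
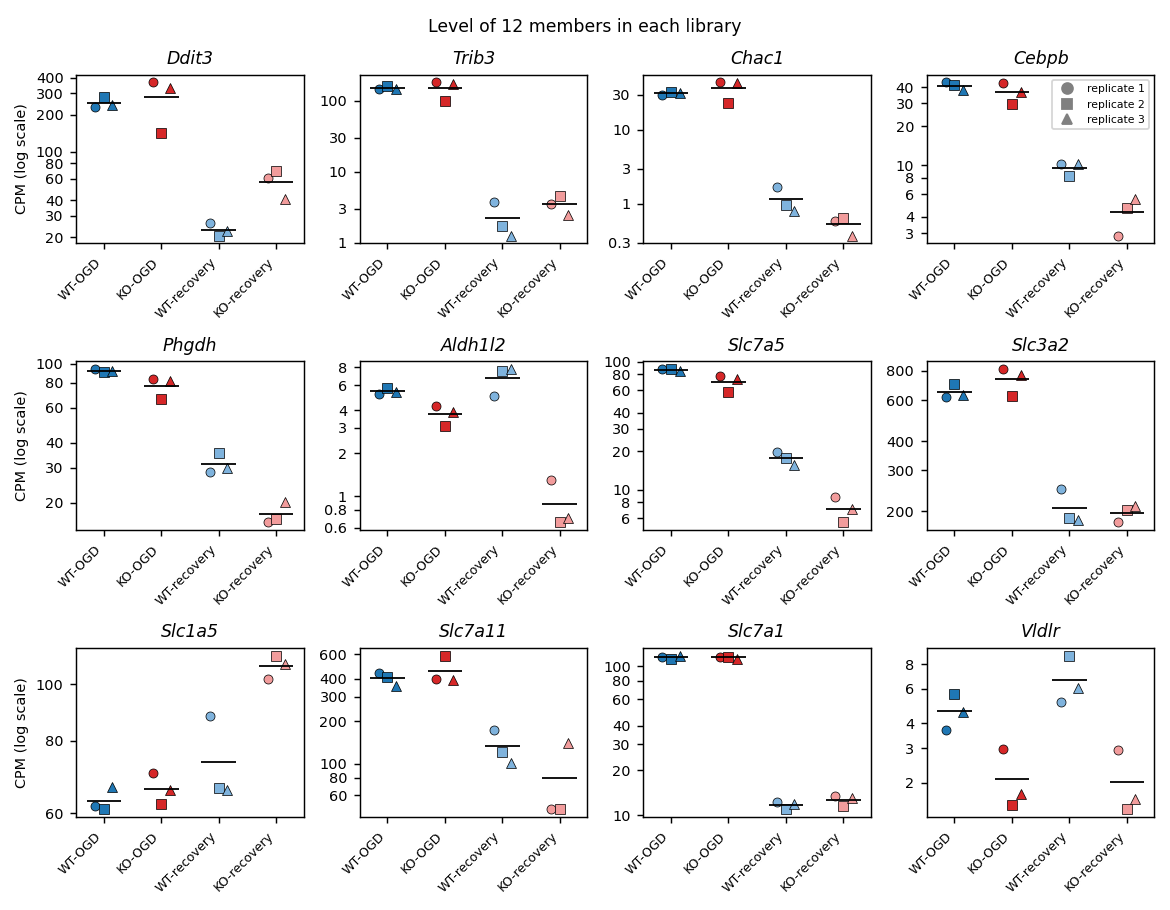
Level in CPM (log axis, its range set for each panel) of selected genes in the 4 groups; circles, squares and triangles are replicates 1, 2 and 3 and the bar is the group mean. Recovery libraries lie below OGD libraries for the genes that fell, while Slc1a5 lies highest in KO-recovery.

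Straight after OGD few of the 38 genes differed between genotypes by the test. KO was lower than WT in 3 of the 38 genes and higher in none, 7.89% called, where 7.49% of all genes tested were called (6.52% lower, 0.966% higher), so the share was near that of all genes. With RLE size factors in place of TMM 1 was higher and 2 were lower, and with DESeq2 1 was higher and 3 were lower. In a fit of only the groups compared 3 were higher (Atf3 0.31, Atf5 0.34 and Gdf15 0.31). In that fit 5 were lower, with Cbs (-1.60) and Aldh1l2 (-0.52) gained. With no low-count filter Atf3, Atf5 and Gdf15 were again higher, and 3 genes were lower. The median log2 difference was -0.02, against -0.01 over all genes. All KO libraries lay below all WT libraries in 11 of the 38 (17.2% of all genes) and above them in 5 (13.2%). Cth was at 4.42, 5.70 and 5.05 CPM in WT-OGD against 3.10, 1.74 and 2.79 in KO-OGD, a difference of -0.98 ± 0.23 (adjusted p = 0.0147). Vldlr was at 3.68, 5.64 and 4.57 CPM in WT-OGD against 2.98, 1.54 and 1.75 in KO-OGD, a difference of -1.12 ± 0.28 (adjusted p = 0.0242). Psat1 was at 131, 127 and 129.8 CPM in WT-OGD against 107, 108 and 108 in KO-OGD, a difference of -0.27 ± 0.07 (adjusted p = 0.0211). In each of the 3 genes every KO library lay below every WT library. None of these calls held throughout: Cth was lost when WT-OGD 2, WT-OGD 3 or KO-OGD 2 was left out (adjusted p 0.0587 to 0.101), Vldlr when WT-OGD 2, WT-OGD 3, KO-OGD 2 or KO-OGD 3 was (0.0939 to 0.130), and Psat1 when any 1 of the OGD libraries was (0.0625 to 0.122). Once astrocyte marker level was added as a covariate none of the 38 was called, with Cth at 0.07, Vldlr at 0.02 and Psat1 at -0.37. Over all genes that fit called 12 higher and 13 lower, against 182 and 1229 without the covariate. The marker level itself did not overlap between genotypes, so the covariate and the genotype are only partly separable. Atf4 was at 0.17, Ddit3 at 0.17 and Trib3 at -0.02, with KO-OGD replicate 2 low in all 3. Without that library 1 gene was called, Chac1, higher in KO by 0.50 (adjusted p 0.0221).

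**Figure D4:**
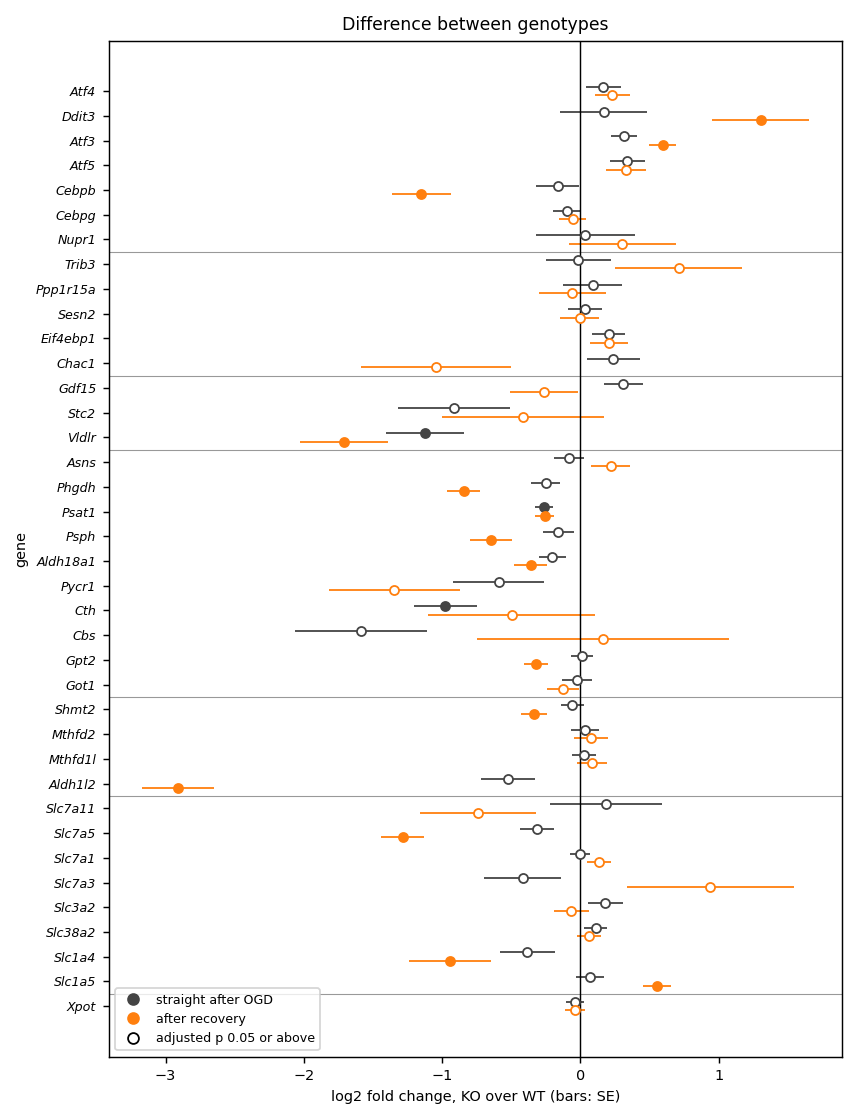
Log2 difference between KO and WT for each of the 38 genes after OGD and after recovery, with bars of 1 SE; filled points passed an adjusted p of 0.05 and open points did not. After OGD 3 points are filled and most lie near 0, and after recovery 14 are filled, 11 of them left of 0.

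After recovery KO was lower than WT in 11 of the 38 genes and higher in 3, 36.8% called, where 22.2% of all genes were called (12% lower, 10.1% higher). The median difference over the 38 was -0.06 log2, against 0.01 over all genes, with 23 of the 38 below 0 and 15 above. All KO libraries lay below all WT libraries in 12 of the 38 and above them in 4, against 17.2% and 16.4% of all genes. Lower were all 3 serine pathway enzymes, 2 folate enzymes, 2 transporters, Aldh18a1, Gpt2, Cebpb and Vldlr, and higher were Ddit3, Atf3 and Slc1a5. Without KO-recovery replicates 1 and 3, the libraries high in connective tissue markers, KO-recovery had 1 library, which is assumed to vary like the other groups. In that fit 12 genes were called: Ddit3, Psat1, Aldh18a1, Gpt2 and Shmt2 were lost (adjusted p 0.0533 to 0.283), and Atf4, Eif4ebp1 and Slc7a11 were gained (0.0269 to 0.0443).

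Markers of other cells and of microglia differed in the same comparison. Of 10 astrocyte markers tested 7 were lower in KO after recovery, and 10 after OGD. Lower after recovery were also 4 of 9 neuronal markers and 4 of 10 oligodendrocyte lineage markers. Olig1 had 725 counts over the WT libraries and 96 over the KO ones. Higher in KO were 4 of 8 connective tissue and muscle markers and 2 of 4 endothelial markers. So were 2 of 6 border macrophage, 1 of 4 monocyte and 1 of 2 neutrophil markers. Microglial markers were higher in KO in 3 of 10 cases and lower in 0. Once astrocyte marker level was added as a covariate only Aldh1l2 was called of the 38, and over all genes 329 were called higher and 379 lower, against 1909 and 2266 without it. Of the 13 calls lost, 7 were lost in no other setting tried. Differences as large or larger with the covariate were those of Ddit3 (2.34), Cebpb (-1.43), Psph (-0.73), Psat1 (-0.35) and Slc1a5 (0.59). Smaller were those of Phgdh (-0.76), Slc7a5 (-0.92), Vldlr (-0.80), Atf3 (0.46), Gpt2 (-0.24), Shmt2 (-0.18), Slc1a4 (-0.17) and Aldh18a1 (-0.05). After recovery, too, the marker level did not overlap between genotypes (mean log2 level 3.23 to 3.51 in WT and 1.91 to 2.51 in KO). The covariate and the genotype are thus only partly separable, and a lost call cannot be assigned to either. The part of the other markers was not tested.

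Aldh1l2 differed most, at 5.02, 7.51 and 7.77 CPM in WT-recovery against 1.29, 0.653 and 0.696 in KO-recovery. The groups did not overlap, and the difference was -2.91 ± 0.26 (adjusted p = 3.15e-06). Reads of D10Wsu102e, which overlaps Aldh1l2 on the other strand, cannot be told apart from its own unless strand was used in counting. In the serine pathway Phgdh was at 28.4, 35.5 and 30.0 CPM in WT-recovery against 15.9, 16.5 and 20.1 in KO-recovery, a difference of -0.84 ± 0.12 (adjusted p = 2.01e-04). Psph was at 6.85, 7.08 and 6.06 CPM (WT) and 4.26, 3.35 and 4.98 (KO), a difference of -0.65 ± 0.15 (adjusted p = 0.00651), and Psat1 at 46.4, 45.9 and 49.0 (WT) and 38.5, 38.5 and 41.0 (KO), a difference of -0.26 ± 0.07 (adjusted p = 0.0152). No KO library reached the lowest WT library in any of the 3. Phgdh is also a gene that astrocytes are known to express. The downstream Shmt2 differed by -0.34 ± 0.09 (adjusted p = 0.0173), from 28.8, 27.6 and 28.6 CPM in WT to 21.4, 22.9 and 23.0 in KO. Gpt2 was at 32.8, 30.9 and 29.7 CPM in WT and 26.9, 25.1 and 22.7 in KO (-0.32 ± 0.09, adjusted p = 0.0169), and Aldh18a1 at 18.2, 18.0 and 17.2 (WT) and 13.8, 14.5 and 13.3 (KO) (-0.36 ± 0.12, adjusted p = 0.0390), again without overlap. Psat1 was lost without WT-recovery 3 or KO-recovery 1 (adjusted p 0.0591 and 0.0614), and Shmt2 without the same libraries (0.0504 and 0.0723). Aldh18a1 was lost without any one of WT-OGD 1 to 3, WT-recovery 1 to 3, or KO-recovery 1 or 3 (0.0620 to 0.104).

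Of the transporters, Slc7a5 was at 19.9, 17.8 and 15.8 CPM in WT-recovery against 8.82, 5.55 and 7.01 in KO-recovery, a difference of -1.28 ± 0.15 (adjusted p = 5.63e-05) with no overlap. Slc1a4 was at 2.97, 3.97 and 3.99 CPM in WT and 2.92, 1.39 and 1.28 in KO (-0.94 ± 0.29, adjusted p = 0.0328), with KO replicate 1 just under the lowest WT library. That call was lost without WT-recovery 2 or 3 or KO-recovery 2 or 3 (adjusted p 0.0930 to 0.112). Slc1a5 went the other way, at 88.1, 66.3 and 65.8 CPM in WT and 102, 112 and 108 in KO (0.55 ± 0.10, adjusted p = 0.00148). The heavy chain Slc3a2, partner of Slc7a5, was at -0.06 (adjusted p = 0.758). Slc7a11 was at -0.74 ± 0.42 (adjusted p = 0.248), and without KO-recovery replicate 3 at -1.47 (adjusted p 0.00233). With no low-count filter and all libraries kept it was at -0.72 (adjusted p 6.73e-10). Its call therefore varied with the setting as well as with that library. Of the transcription factors, Ddit3 was at 26.0, 20.6 and 22.6 CPM in WT-recovery against 60.4, 68.7 and 40.9 in KO-recovery (1.30 ± 0.35, adjusted p = 0.0255), and Atf3 at 232, 171 and 185 (WT) and 289, 301 and 297 (KO) (0.59 ± 0.10, adjusted p = 6.53e-04). Cebpb was at 10.3, 8.24 and 10.3 CPM in WT and 2.88, 4.65 and 5.46 in KO (-1.15 ± 0.21, adjusted p = 0.00170). In all 3 the groups did not overlap, 2 higher and 1 lower in KO, while Atf4 was at 0.23 (adjusted p = 0.213), and at 0.34 (adjusted p 0.0452) without KO-recovery replicate 3. The Ddit3 call was lost without WT-recovery 2 or 3 or KO-recovery 1 or 2 (adjusted p 0.0721 to 0.0959). Vldlr was at 5.14, 8.79 and 6.06 CPM in WT-recovery against 2.92, 1.47 and 1.66 in KO-recovery (-1.71 ± 0.32, adjusted p = 0.00166), without overlap, and with Psat1 it was lower in KO at both times.

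The change over time itself differed between genotypes in 4 of the 38 genes (10.5%), where 5.25% of all genes did (2.36% lower, 2.89% higher). In KO 3 of them fell further than in WT and Aldh1l2, which did not pass in WT, fell: Aldh1l2 (-2.39 ± 0.33, adjusted p = 8.70e-04), Slc7a5 (-0.97 ± 0.20, adjusted p = 0.0112), Phgdh (-0.59 ± 0.16, adjusted p = 0.0435) and Cebpb (-0.99 ± 0.26, adjusted p = 0.0448). The median of this difference was -0.02, against 0.03 over all genes. Aldh1l2 and Slc7a5 kept the call in each alternative that included them. Phgdh and Cebpb lost it without any one of WT-OGD 1 to 3, KO-OGD 1 or 3, WT-recovery 2 or 3, or KO-recovery 1 or 2, and Cebpb also without WT-recovery 1 (adjusted p 0.0558 to 0.126). Slc1a5, at 0.49 ± 0.14, did not pass (adjusted p = 0.0643). Ddit3, at 1.13 ± 0.47 (adjusted p = 0.207), did not pass either.

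Genes around the set were counted from lists of related pathways, to be read against the 56.8% of all genes called over time in WT, 59.0% in KO, and 22.2% between genotypes after recovery. These lists too were chosen with earlier results of these data known, so their shares are not independent support. Of 18 other ATF4 targets, mainly tRNA synthetases, 17 could be tested, and all 17 fell in both genotypes, with a median of -1.49 in WT and -1.53 in KO. Eprs and Aars, which load proline, glutamate and alanine onto tRNAs, changed by -1.98 and -2.03 in WT and -1.83 and -2.01 in KO. Pck2, a mitochondrial enzyme of gluconeogenesis, changed by -2.72 in WT, and Ddit4, an mTORC1 inhibitor, by -3.12 in KO. In recovery 2 of the 17 were lower in KO (Jdp2 -1.19, Ddit4 -0.71) and 2 higher (Cars 0.60, Eprs 0.25), 23.5% called and so near the share of all genes. The kinases and regulators of eIF2 moved both ways: 8 of 18 fell and 3 rose in each genotype (61.1% called), led by Ppp1r15b, the constitutive counterpart of GADD34 (-0.98 in WT, -0.95 in KO), Eif2s2 (-1.24 and -1.38) and Impact (-1.61 and -1.64). Of 16 genes of the other branches of the unfolded protein response, 10 fell and 2 rose in WT (75.0% called), and 8 fell and 1 rose in KO (56.2%). The sensors Atf6 and Ern1 were at -1.67 and -1.75 in WT, and the chaperone Pdia4 rose in KO (1.20). After OGD edgeR's quasi-likelihood test called no genotype difference in these 3 lists, and at an unadjusted p under 0.05 it gave 0 of 17 other ATF4 targets, 2 of 18 eIF2 genes and 0 of 16 unfolded protein response genes. Their most expressed genes, Sqstm1, Ppp1r15b and Hspa5, were at 0.16, 0.01 and 0.00 in that comparison.

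Amino acid transporters outside the set fell in 9 of 20 cases in WT and 11 in KO, and rose in 3 in each, so 12 and 14 of the 20 were called. Slc6a9, a glycine carrier, was at -1.90 in WT and -2.96 in KO, while the glutamate carrier Slc1a1 was at 1.65 in WT. In recovery 5 of the 20 were lower in KO and 2 higher (7 of 20 called), with Slc1a1 at -1.96 ± 0.14 (adjusted p = 5.75e-07), Slc1a2 at -2.26 ± 0.32 (adjusted p = 3.09e-04), Slc6a9 at -1.04 ± 0.18 (adjusted p = 0.00108) and Slc15a4 at 0.51 ± 0.09 (adjusted p = 9.67e-04). After OGD Slc1a2 (-1.46) and Slc1a3 (-1.94) were lower in KO, both also on the astrocyte marker list. Among 17 genes of the folate and methionine cycles 5 fell and 3 rose in WT, and 7 fell and 4 rose in KO. That is 47.1% and 64.7% called, below the share of all genes in WT and near it in KO. Tyms, which serves thymidylate synthesis, rose in KO by 2.04. After OGD Gldc (-2.09) and the astrocyte marker Aldh1l1 (-0.56) were lower in KO. Of 17 other genes of amino acid metabolism 2 fell and 7 rose in WT (52.9% called), and 4 fell and 7 rose in KO (64.7%), with Ass1, of arginine synthesis, at 1.17 and 1.12. In recovery 5 of them were lower in KO (29.4% called), among them glutamine synthetase, Glul (-0.55 ± 0.10, adjusted p = 0.00107). Of 20 genes of mTORC1 and its amino acid sensors 8 fell and 5 rose in WT (65.0% called), and 6 fell and 5 rose in KO (55.0%), so the KO share was near that of all genes. Rragd and Flcn, of the lysosomal arm, were at -1.74 and -1.46 in WT and -2.22 and -1.38 in KO. Sesn3, a relative of Sesn2, was lower in KO after OGD (-1.04) and after recovery (-1.68), where Sesn2 itself was at 0.03 and -0.01.

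Under GENCODE M21 on GRCm38, 8 of the 38 genes share exon bases with another annotated gene (Ddit3, Atf5, Cebpb, Cebpg, Ppp1r15a, Psph, Shmt2 and Aldh1l2), and their counts are uncertain to that extent. Ddit3 had 2 identifiers, of which ENSMUSG00000025408.15 at chr10:127290774-127296288 was used. The other, with 105 exon bases that all lie within the first, held 49 to 4456 counts per library. Without the 8 genes, 25 genes fell in WT and 25 fell and 1 rose in KO, 9 differed between genotypes after recovery, and 2 differed in their change over time.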

How the data were processed

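Counts per gene of 12 bulk RNA-seq libraries were used as the authors deposited them. The submitters' processing notes name HISAT2, featureCounts and GRCm38. Versions and counting options, strand included, are not given in the sources used here, and the labels' protocols name a stranded total RNA kit while the molecule field names polyA RNA. Reads from overlapping or antisense genes may therefore be shared. Of 55421 identifiers 55240 matched GENCODE M21 with the version ignored.

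Counts were scaled by TMM, filtered with filterByExpr and tested with edgeR 4.0.16 (R 4.3.3; quasi-likelihood, robust) in 1 model of all 12 libraries with a mean per group, Benjamini-Hochberg adjusted over 18842 genes and called at 0.05. A fold of 2 or 4 was added where stated. CPM were computed from TMM library sizes, so depth, from 9885259 to 45347118 counts, sets the precision of low genes. The test was checked on simulated data, with the same spread for every gene and only for KO against WT after OGD. No simulated library stood apart from its group, so the check does not cover such libraries. Replicates differed by more than sampling noise (chi-square per degree of freedom 6.66 to 60.2).

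The 38 genes and the other lists were chosen with earlier results of these data known. All 38 could be named. Values in each library are printed for genes called between genotypes, in the change over time between genotypes, or in both genotypes over time with at least a 2-fold change. From other lists up to 4 genes per comparison with the smallest adjusted p are named, and the most expressed gene where none was called. Of the genes this rule selects, 1 is not reported here. Alternatives were RLE size factors, no low-count filter, DESeq2 1.42.0, only the groups compared, each library left out, the replicate number as a block, libraries thinned to 9885259 counts, an astrocyte marker covariate, KO-recovery replicates 1 and 3 left out together, and overlapping genes left out.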

Additional observations from a re-analysis of the deposited data

Results flagged for a closer look

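In 4 of the 38 genes (10.5%) the change from OGD to recovery differed between genotypes by the interaction test of edgeR's quasi-likelihood fit. Over all genes tested the share was 5.25%, with 2.36% lower and 2.89% higher. The change in KO minus that in WT was -2.39 for Aldh1l2 (adjusted p = 8.70e-04), -0.97 for Slc7a5 (adjusted p = 0.0112), -0.59 for Phgdh (adjusted p = 0.0435) and -0.99 for Cebpb (adjusted p = 0.0448). Each had 3 KO-recovery libraries below all 3 WT-recovery libraries, as 17.2% of all genes tested did. The interaction test used the same values, so this is not separate support. With the astrocyte marker level in the model 3 of the 4 genes were called, without Cebpb. Without KO-recovery replicates 1 and 3, high in connective tissue markers, 2 were called, Aldh1l2 and Slc7a5, with 1 library left in that group. The Xist level and the group cannot be told apart here.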

How the results depend on the processing

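The falls over time held best: of 66 decreases and increases called in WT or KO, 64 were called under every alternative, the exceptions being Cbs in WT and Pycr1 in KO. Called genes numbered 25 to 35 in WT and 26 to 35 in KO. Genotype calls after OGD were the least stable. From 3 they became 6 with no low-count filter, 0 with the astrocyte marker covariate, 8 with only the groups compared, 0 in libraries thinned to equal depth and 6 without KO-recovery replicates 1 and 3, and leaving out single libraries gave 0 to 6. The 0 came without WT-OGD 2 or 3, 1 without KO-OGD 2 or 3 and 6 without KO-recovery 3. Of the 6 with no low-count filter 3 were higher in KO, as were 3 of the 8 with only the groups compared. With the covariate Vldlr and Cth changed sign, to 0.0196 and 0.0744 on the log2 scale (adjusted p 0.997 and 0.980). After recovery 14 genotype calls became 18 with no low-count filter (6 higher and 12 lower in KO). They became 1 with the covariate and 9 without overlapping genes, and 10 to 15 with single libraries left out. The cause was not tested. The set without overlapping genes also holds fewer genes that can be called. The 4 interaction calls became 9 with no low-count filter, 2 in thinned libraries, 2 without KO-recovery replicates 1 and 3 (1 library left there, with the spread of the other groups), 2 without overlapping genes, and 2 to 6 with single libraries left out. With the replicate number as a block they became 2, and the counts of the other 4 comparisons did not move, although after recovery Aldh18a1 was lost (adjusted p 0.0538) and Pycr1 gained (0.0409). The correlation of same-numbered libraries, as deviations from their group means, was -0.293 to 0.162, above 0.1 in 2 of 18 pairs. With 3 libraries per group it cannot show whether a replicate number marks a shared mouse or culture. Only the groups compared could not be run for the interaction. Recovery libraries were shallower, so genes with few counts there (Cth, Cbs, Slc7a3, Pycr1, Stc2, Chac1) have imprecise changes.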
